A study of Mus musculus with 10 samples.

Results

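The genes described here are 8 mouse genes of the mevalonate pathway or its feedback control, Hmgcs1, Idi1, Fdps, Ggps1, Fdft1, Sqle, Lss and Insig1, out of 26504 gene symbols in the count tables. They were chosen by pathway membership, with earlier results of these data known, and all 8 had unique molecular identifier (UMI) counts in bone endothelial cells (ECs). The study sequenced single ECs from the femur and tibia of C57BL/6 Cdh5-mTnG mice, in which a reporter driven by the endothelial Cdh5 promoter labels ECs with membrane tdTomato and nuclear GFP. Lineage-positive blood cells were depleted and cells positive for both colours were sorted. The 10 libraries formed 5 groups of 2: juvenile mice of 3 weeks, adult mice of 12 weeks with no treatment named in the labels, aged mice of 75 weeks, and mice of 12 weeks given either parathyroid hormone (PTH) daily or alendronate every other day. The juvenile group held males and females and the other 4 groups held females, so sex and age cannot be told apart in the comparison of 3 with 12 weeks. The study's methods name PBS as the vehicle of its drug experiments, without saying whether these adult mice received it. The animals of a group were pooled and sequenced in a single experiment, so the p-values below measure the spread between 2 libraries of a group, which may be technical, and not the spread between mice.

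The mevalonate pathway turns acetyl-CoA into isoprenoids and sterols. Hmgcs1 catalyses an early condensation step of the pathway, and Idi1 interconverts the isomers of isopentenyl diphosphate. Fdps joins these units to farnesyl diphosphate, from which Ggps1 makes geranylgeranyl diphosphate for protein prenylation, Fdft1 makes squalene, and Sqle and Lss carry squalene on to lanosterol. Insig1 is an endoplasmic reticulum protein that holds back the SREBP transcription factors when sterols are plentiful and is itself an SREBP target. Alendronate is a nitrogen-containing bisphosphonate, a drug class that binds to bone mineral and inhibits the FDPS enzyme, best known in osteoclasts. PTH is used as a bone anabolic agent.

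SREBP factors bind sterol regulatory elements, often beside CCAAT and GC boxes, so the promoter windows of the members were searched for these letters on both strands. RefSeq promoter sequences of the GRCm38.p6 build were matched for 5 of the 8 members (Hmgcs1, Idi1, Lss, Ggps1 and Insig1), and the 250 bases before the start were read 5′ to 3′ on the gene's strand. The start is that of the promoter sequence and can differ from the GENCODE gene position given further below, as for Hmgcs1 and Lss. Those of Hmgcs1 and Lss, which were higher with alendronate, and of Ggps1, which was not called, are shown, with TCACNCCAC (sterol regulatory element, SRE) and CCAAT or its reverse complement in capitals.
Hmgcs1, chr13:119690101-119690350, plus strand: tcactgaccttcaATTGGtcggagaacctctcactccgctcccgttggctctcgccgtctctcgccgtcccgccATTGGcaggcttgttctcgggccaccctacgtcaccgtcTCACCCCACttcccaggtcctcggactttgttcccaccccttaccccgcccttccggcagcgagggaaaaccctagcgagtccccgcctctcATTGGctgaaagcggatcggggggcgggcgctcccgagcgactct
Lss, chr10:76531355-76531604, plus strand: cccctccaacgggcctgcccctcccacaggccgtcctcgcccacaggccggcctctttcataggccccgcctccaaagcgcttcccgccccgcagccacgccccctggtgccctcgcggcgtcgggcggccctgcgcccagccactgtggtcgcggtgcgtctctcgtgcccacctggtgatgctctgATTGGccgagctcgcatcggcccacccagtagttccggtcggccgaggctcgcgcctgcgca
Ggps1, chr13:14063489-14063738, minus strand: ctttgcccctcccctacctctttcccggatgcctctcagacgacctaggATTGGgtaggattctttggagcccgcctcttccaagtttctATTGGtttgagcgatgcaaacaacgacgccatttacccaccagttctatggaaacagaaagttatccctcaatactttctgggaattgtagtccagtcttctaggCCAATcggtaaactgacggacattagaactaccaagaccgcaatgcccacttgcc
The SRE letters were present in Hmgcs1, as TCACCCCAC from 137 to 129 bases before the start, and in no other of the 5 windows, against 1.05% of all 32851 windows. Idi1, which was also higher with alendronate, was among those without them. Over the members and the related lists described below, Hmgcs1 was the only 1 of 55 genes with these letters, against 1.22% of all 27025 genes. CCAAT was present in 5 of 5 windows, including Ggps1 and Insig1, against 33.85% of all windows. The GC box GGGCGG was present in 4 of 5, with Ggps1 the exception, against 32.74% of all windows. These matches describe letters in a window and no binding was measured.

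In the GENCODE annotation of GRCm38 (mm10), the build to which the reads were aligned, Hmgcs1 lies at chr13:119690379-119708260, Idi1 at chr13:8885501-8892451, Fdps at chr3:89093588-89101959 and Ggps1 at chr13:14050659-14063488. Fdft1 lies at chr14:63145150-63179578, Sqle at chr15:59315077-59331192, Lss at chr10:76531588-76557138 and Insig1 at chr5:28071363-28078662. An exon of Fdps is shared with Gm43738 on the same strand, and exons of Ggps1 and Fdft1 overlap Arid4b and Ctsb on the opposite strand. Hmgcs1, Idi1 and Lss overlap noncoding or unnamed loci on the opposite strand. The strand setting of the counting was not given in the sources used here, so reads of overlapping genes cannot be told apart.

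The tables held 47466 cell barcodes with 10653583 to 28419323 UMIs per library, of which 46283 had 500 to 6000 genes and under 25% mitochondrial UMIs. After clusters of other cells were set aside, 43958 cells remained, from 2033 to 7348 per library, which are called ECs here. They include a small unnamed cluster led by Vpreb3, Igll1 and Ighm, genes known from B-cell precursors, with Cdh5 at 60.5 CPM and Ptprc at 63.1 CPM. It made up 0.606% of these cells in the adult, 0.274% in the alendronate, 0.239% in the juvenile and 0.132% in the aged group, with 0 cells in both PTH libraries, and without it the members called in all ECs numbered 5, 2, 4, 2 and 6 in the comparisons below, as with it. Pairs of libraries shared 1 to 78 barcodes. Clusters were called bmEC-like (19264 cells, sinusoidal bone marrow), mpEC-like (12379, metaphyseal), aEC-like (6871, arterial), rEC-like (4636, remodelling) and pEC-like (687, proliferating) from marker genes, with the pathway genes kept out of the clustering. The mpEC-like class joined a cluster of 8201 cells led by Ramp3 and a shallow one of 4178 cells led by Igha, Igkc and Igj. Their median UMIs per cell were 4634 and 1616.5. The bmEC-like class also held a shallow cluster, of 3670 cells led by Gm10800 and Gm10801, with a median of 1759.5 UMIs per cell. At resolution 0.3 a cluster of 6454 cells led by Igha and Igkc was named bmEC-like. Without the shallow mpEC-like cluster 563 of 748 mpEC-like cells were left in PTH replicate 1 and 1664 of 2770 in PTH replicate 2. The rEC-like class joined a cluster of 2705 cells led by Timp4 and one of 1931 cells led by Tagln, Ccl21a and Vwf, whose rEC score led its lymphatic score by only 0.346 and which had no name when cells were clustered without integration. The latter cluster made up 33% and 34.5% of the rEC-like cells in the adult, 38.7% and 40.5% in the alendronate, 82.6% and 57.1% in the PTH, 29.3% and 33% in the aged and 39.5% and 55.2% in the juvenile libraries, so rEC-like comparisons set different mixtures of clusters side by side. The endothelial genes Cdh5 and Pecam1 measured 1072 to 1321 and 653 to 1195 CPM (UMI counts scaled to library size) in the summed ECs of the 10 libraries. In the same sums the markers of erythroid cells reached 1016 CPM, of mural cells 564.9 CPM, of adipocytes 266.1 CPM, of megakaryocytes 183.6 CPM, of lymphatic ECs 147.5 CPM, of haematopoietic cells 108.2 CPM, of mesenchymal cells 47.19 CPM, and of chondrocytes, osteoclasts and myofibres at most 7.737 CPM. The adipocyte list holds Cfd, a leading gene of bmEC-like clusters of 4509 and 2589 cells. Its sums here and below are therefore not particular to adipocytes. The class make-up differed between groups: bmEC-like cells were 53.8% of untreated adult ECs, 41.1% with alendronate, 33.1% with PTH, 23.8% at 75 weeks and 60.1% at 3 weeks. The series names 2 versions of the library kit without tying them to libraries, so kit version and group cannot be told apart.

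With alendronate, 5 of the 8 members were higher than in untreated ECs of 12 weeks, and none was lower. They were Hmgcs1 of the early pathway, Idi1, the isomerase just before Fdps, the alendronate target Fdps itself, and Sqle and Lss of the sterol branch. For comparison, 27.6% of the 14477 genes tested were called in this contrast in either direction and 15.4% were called higher. Levels are given as CPM, here scaled between libraries and taken from the summed ECs of a library, and are compared only between samples, not between genes.

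Fdps measured 28.2 and 27.4 CPM in the untreated libraries and 40.2 and 37.7 CPM in the alendronate libraries. Both alendronate values lay above both untreated ones, and the log2 fold change was 0.49 ± 0.06 (SE; adjusted p = 2.59e-05, edgeR). Hmgcs1 measured 24.7 and 25.9 CPM without treatment and 36.0 and 34.2 CPM with alendronate. The groups did not overlap here either, with a log2 fold change of 0.48 ± 0.06 (adjusted p = 5.20e-05). Sqle, the squalene epoxidase, measured 8.15 and 7.53 CPM untreated and 11.9 and 9.78 CPM with alendronate. Its log2 fold change was 0.46 ± 0.13 (adjusted p = 0.0171), and the alendronate library nearest to the untreated ones was replicate 2.

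Idi1 and Lss were sparse. Idi1 had 6 and 4 UMIs in the untreated libraries (0.3325 and 0.239 CPM) and 20 and 18 UMIs in the alendronate libraries (1.05 and 0.956 CPM). The log2 fold change was 1.78 ± 0.41 (adjusted p = 0.00564). Lss, which cyclises oxidosqualene to lanosterol, measured 0.997 and 0.777 CPM untreated and 1.69 and 1.81 CPM with alendronate. Its log2 fold change was 0.97 ± 0.30 (adjusted p = 0.0269). In each of these 5 genes the alendronate libraries lay above the untreated ones, a pattern that 32.4% of all tested genes also showed.

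**Figure D1:**
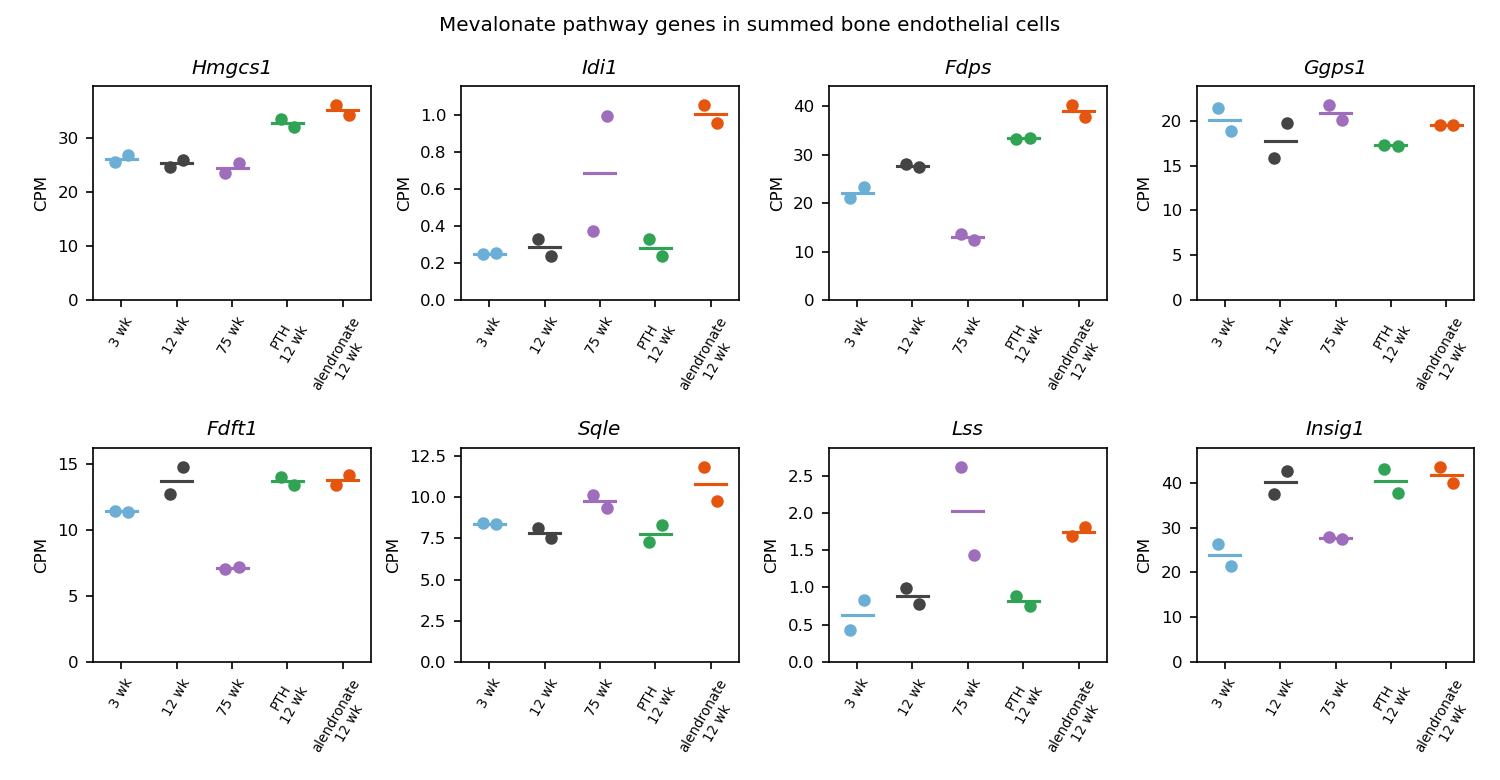
CPM of the 8 members in the summed ECs of each library; points are libraries, horizontal bars are means of the 2 libraries of a group, and each y axis starts at 0. Fdps is highest with alendronate (40.2 and 37.7 CPM) and lowest at 75 weeks (13.7 and 12.5 CPM), and Insig1 is lower at 3 and 75 weeks than in the 3 groups of 12 weeks.

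The other 3 members were not called with alendronate. Insig1 measured 37.5 and 42.7 CPM untreated and 43.6 and 40.0 CPM with alendronate, so the groups overlapped. Its log2 fold change was 0.06 with a 95% interval from -0.10 to 0.22 (adjusted p = 0.574). Fdft1, the squalene synthase that draws farnesyl diphosphate into sterols, differed by 0.01 (interval from -0.20 to 0.22) and Ggps1, which draws it into geranylgeranyl diphosphate, by 0.14 (interval from -0.06 to 0.34). For these 3 genes the intervals do not reach the point estimates of Fdps and Hmgcs1. Ggps1 was called higher without adult replicate 2 (log2 fold change 0.31), a fit that leaves 1 untreated library and takes its spread from the other groups.

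The calls of Fdps and Hmgcs1 held under all 16 alternative settings, with log2 fold changes from 0.40 to 0.56 for Fdps and from 0.43 to 0.51 for Hmgcs1. With the vessel classes held at equal shares, they were 0.42 (adjusted p = 0.00199) and 0.43 (adjusted p = 0.00289). The calls of the other 3 genes did not hold throughout. Without alendronate replicate 1, the log2 fold change was 1.72 for Idi1 (adjusted p = 0.0579) and 0.33 for Sqle (adjusted p = 0.153). Without adult replicate 2, it was 1.58 for Idi1 (adjusted p = 0.0754) and 0.41 for Sqle (adjusted p = 0.0905). The call of Lss was lost when any of the 4 libraries was left out, at 1.02 and 0.91 without alendronate replicate 1 and 2 and at 1.16 and 0.81 without adult replicate 1 and 2. Sqle also lost its call with class shares held equal (0.38, adjusted p = 0.138), as did Lss (0.60, adjusted p = 0.0512), while Idi1 fell to 0.71 (adjusted p = 0.0219). With DESeq2 the adjusted p was 0.124 for Sqle and 0.262 for Lss, and none was given for Idi1. In cells thinned to 1000 UMIs only Fdps and Hmgcs1 were called. The equal-share values are on a log2 scale with a pseudocount of 1 CPM, which understates the change of low genes.

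**Figure D2:**
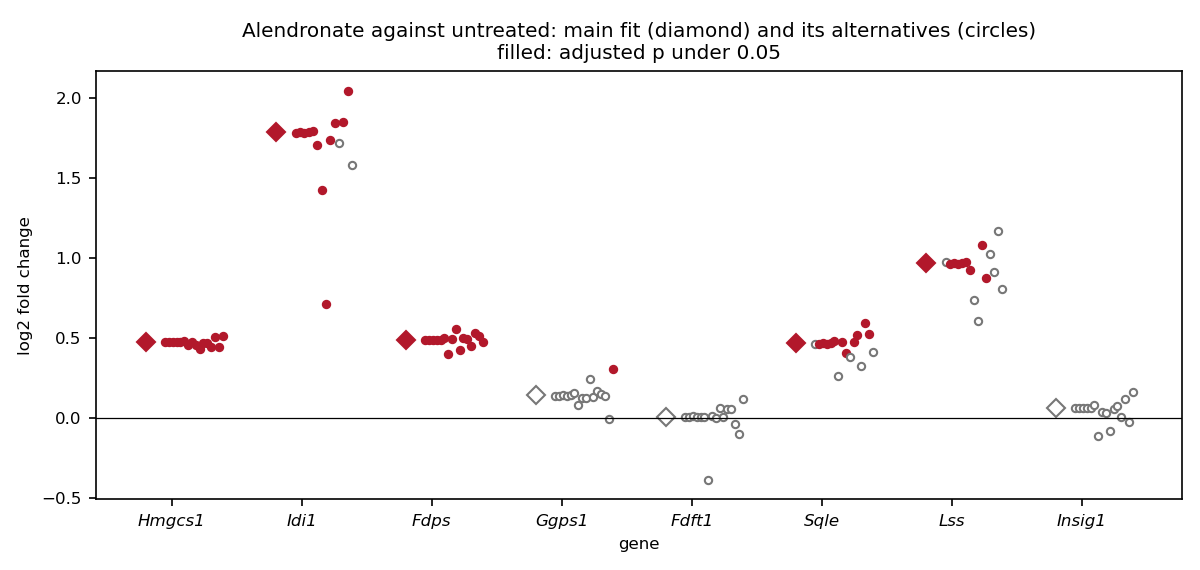
Log2 fold change of each member, alendronate against untreated, in the reported fit (diamond) and under each alternative setting (circles); filled symbols have an adjusted p under 0.05. All circles of Fdps and Hmgcs1 are filled, whereas Idi1, Sqle and Lss each have open circles.

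Gene lists outside the pathway moved with alendronate as well. The summed level of 10 stress-response genes was 2397 to 2437 CPM in untreated and 3025 to 3040 CPM in alendronate libraries. Markers of haematopoietic cells (10 of 10 measured, none at 0) summed to 71.1 to 93.9 CPM untreated and 100.5 to 107.5 CPM with alendronate. In the haematopoietic clusters of the untreated libraries Fdps measured 125.2 and 110.3 CPM of plain totals, a scale other than that of the EC values. Megakaryocyte markers summed to 70.4 to 78.6 CPM untreated and 106.5 to 120.4 CPM with alendronate, mesenchymal markers to 21.06 to 21.15 CPM and 31.59 to 35.86 CPM, and lymphatic markers to 119.3 to 123.7 CPM and 127.5 CPM. Mitochondrial genes summed to 13350 to 13380 CPM untreated and 15720 to 15740 CPM with alendronate, and ribosomal protein genes to 153100 to 155200 CPM and 160100 to 162200 CPM. Adipocyte markers, a list that holds Cfd, were lower with alendronate, at 153.6 to 164.0 CPM against 246.2 to 266.1 CPM. The part of these lists in the differences of the members was not tested.

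Inside the vessel classes, Fdps and Hmgcs1 were higher with alendronate in some classes, and the remaining members were mostly uncalled. In bmEC-like cells 20.1% of genes were called, and Hmgcs1 alone among the members: it measured 22.4 and 22.1 CPM untreated and 32.2 and 31.7 CPM with alendronate, a log2 fold change of 0.52 ± 0.10 (adjusted p = 0.00031). In mpEC-like cells (14.1% of genes called) Fdps rose by 0.50 ± 0.13 (adjusted p = 0.0109), Hmgcs1 by 0.46 ± 0.12 (adjusted p = 0.00935) and Sqle by 0.86 ± 0.24 (adjusted p = 0.0155). In aEC-like cells (8.58% of genes called) Fdps measured 44.7 and 40.7 CPM untreated and 59.5 and 66.7 CPM with alendronate. The groups were well apart, and the log2 fold change was 0.53 ± 0.13 (adjusted p = 0.00374). Class CPM were scaled over all sums of class and library and the fold changes over the sums of the class in its own fit, and between the drug groups these scales differed by at most 0.054 on the log2 scale. In the other classes no member was called by edgeR, where 3.01% (rEC-like) and 0.778% (pEC-like) of genes were called.

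Most of these class-level calls were lost when a library was left out, which also leaves fewer samples. Only that of Hmgcs1 in bmEC-like cells held when each library was left out in turn. In mpEC-like cells, leaving out alendronate replicate 1 brought Fdps to 0.25 (adjusted p = 0.366), Hmgcs1 to 0.38 (adjusted p = 0.109) and Sqle to 0.70 (adjusted p = 0.191). Leaving out adult replicate 2 brought Fdps there to 0.44 (adjusted p = 0.0613) and Sqle to 0.79 (adjusted p = 0.0827), and leaving out adult replicate 1 brought Hmgcs1 to 0.33 (adjusted p = 0.161). In aEC-like cells Fdps was 0.45 (adjusted p = 0.0737) without alendronate replicate 2 and 0.48 (adjusted p = 0.0797) without adult replicate 2. A call in some classes does not show a difference between classes: in 30 tests that set a class beside the average of the others, the smallest adjusted p was 0.353.

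**Figure D3:**
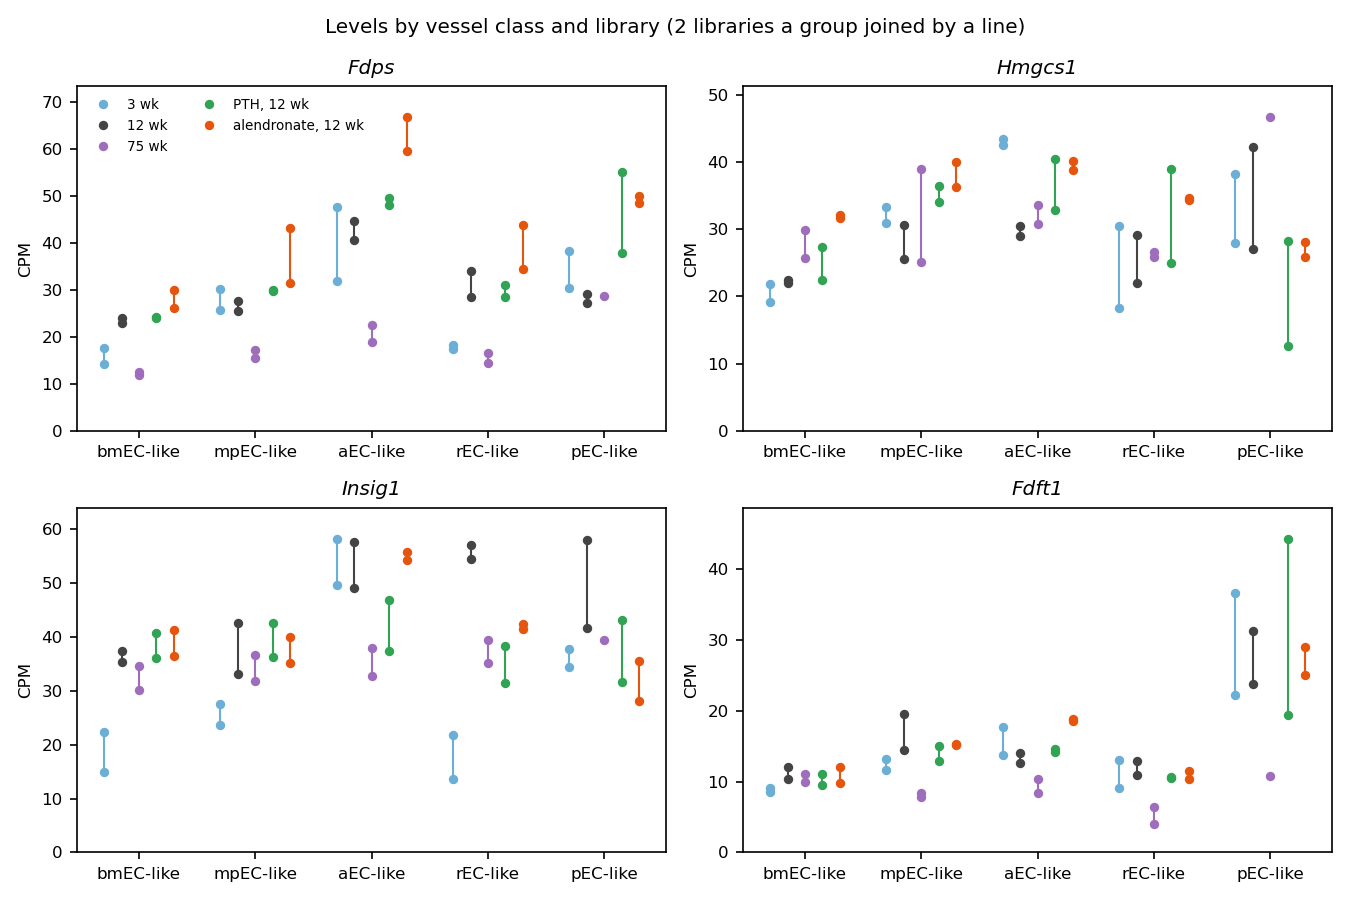
CPM of Fdps, Hmgcs1, Insig1 and Fdft1 in the summed cells of each vessel class; points are libraries, coloured by group, and the 2 libraries of a group are joined by a line. CPM are scaled over all sums of class and library. In aEC-like cells Fdps runs from 18.8 CPM at 75 weeks to 66.7 CPM with alendronate, and Insig1 at 3 weeks is low in bmEC-like, mpEC-like and also rEC-like cells but not in aEC-like cells.

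The comparison of PTH with untreated ECs used the same control libraries, so the values are given side by side. With PTH 2 members were called, both higher, where 31.6% of genes were called and 16.8% were called higher. Fdps measured 33.3 and 33.5 CPM with PTH, above both untreated libraries and below both alendronate libraries, a log2 fold change of 0.27 ± 0.06 (adjusted p = 0.00353). Hmgcs1 measured 33.5 and 32.1 CPM with PTH, a log2 fold change of 0.37 ± 0.06 (adjusted p = 0.000459). The call of Fdps was lost with class shares held equal (0.10, adjusted p = 0.399) and when all cells that passed the filter were summed (0.13, adjusted p = 0.122), with DESeq2 (0.26, adjusted p = 0.0995) and in thinned cells (0.17, adjusted p = 0.435), where Hmgcs1 was at 0.35 (adjusted p = 0.0677). Haematopoietic markers summed to 24.2 to 26.6 CPM with PTH, erythroid markers to 102.0 to 108.3 CPM, mural markers to 375.0 to 375.2 CPM, adipocyte markers to 187.9 to 192.1 CPM, megakaryocyte markers to 54.5 to 61.6 CPM, lymphatic markers to 72.1 to 111.8 CPM and ribosomal protein genes to 137400 to 138200 CPM, all below the untreated libraries. Mesenchymal markers, at 31.14 to 47.19 CPM, and mitochondrial genes, at 13680 to 15820 CPM, were above them. The part of these lists was not tested.

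Idi1, Lss and Sqle, which were higher with alendronate, were not called with PTH. Sqle measured 7.26 and 8.31 CPM with PTH (log2 fold change 0.02, 95% interval from -0.28 to 0.33). Idi1 had 3 and 6 UMIs with PTH, and its log2 fold change of -0.12 had an interval from -1.34 to 1.09. Lss measured 0.880 and 0.755 CPM with PTH, with an interval from -0.94 to 0.60. Insig1, Fdft1 and Ggps1 were not called, at -0.01, -0.01 and -0.04. With class shares held equal Insig1 was at -0.23, without a call, and in cells thinned to 1000 UMIs it was called lower. Within classes only Hmgcs1 in mpEC-like cells was called (0.33 ± 0.11, adjusted p = 0.0438, where 17.7% of genes were called, against 10.7% in bmEC-like, 8.4% in aEC-like, 7.25% in rEC-like and 2.11% in pEC-like cells), and that call was lost without PTH replicate 1 (0.30), PTH replicate 2 (0.39) or adult replicate 1 (0.20).

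Compared directly, 4 members were higher with alendronate than with PTH, where 31.8% of genes were called and 16.3% were called higher. The log2 fold changes were 0.22 ± 0.06 for Fdps (adjusted p = 0.00815), 1.91 ± 0.42 for Idi1 (adjusted p = 0.00365), 1.14 ± 0.31 for Lss (adjusted p = 0.0123) and 0.44 ± 0.13 for Sqle (adjusted p = 0.0206). Hmgcs1, at 0.11 (adjusted p = 0.172), did not differ between the drugs beyond its error. None of the 4 calls held without PTH replicate 2, which leaves 1 PTH library. The values were then 0.23 for Fdps, 1.59 for Idi1, 0.99 for Lss and 0.58 for Sqle. PTH replicate 2 had the most ECs and total UMIs of all libraries, with 7348 ECs against 2033 in PTH replicate 1. Its median was 3169 UMIs per cell against 4154 in PTH replicate 1. Fdps also lost its call without alendronate replicate 1 (0.18), Lss without alendronate replicate 2 (1.09), and Sqle without alendronate replicate 1 (0.30) or PTH replicate 1 (0.38). DESeq2 called 0 of the 8 members, with 4 at an unadjusted p under 0.05, and its adjusted p was 0.141 for Fdps, 0.116 for Sqle and 0.169 for Lss, with none given for Idi1. In thinned cells edgeR called 0 of the 6 members tested, with 0 at an unadjusted p under 0.05. Lss lost its call with class shares held equal (0.42, adjusted p = 0.174) and when all cells that passed the filter were summed (0.69, adjusted p = 0.13).

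Inside classes, alendronate exceeded PTH for Hmgcs1 in bmEC-like cells (0.41 ± 0.11, adjusted p = 0.0122, where 16.9% of genes were called) and for Sqle in mpEC-like cells (0.62 ± 0.21, adjusted p = 0.0382, where 22.8% were called). In aEC-like cells, where 10.3% of genes were called, Fdps (0.35 ± 0.11), Sqle (0.82 ± 0.25) and Insig1 (0.42 ± 0.12) were higher. In rEC-like cells 6.76% and in pEC-like cells 2.27% of genes were called, and no member. Without the cluster led by Tagln, whose share was highest with PTH, 0 of 4 members tested in rEC-like cells were called in any of the 3 drug comparisons, with 1 of 4 at an unadjusted p under 0.05 for PTH against untreated. Without PTH replicate 2 none of these 5 calls was past the threshold, at 0.21, 0.68, 0.30, 1.05 and 0.19. Each was also lost without an alendronate library: Hmgcs1 (0.40), Sqle in mpEC-like cells (0.46) and Sqle in aEC-like cells (0.64) without replicate 1, Fdps (0.27) without replicate 2, and Insig1 without either (0.41 and 0.44). Sqle also lost both calls without PTH replicate 1 (0.59 and 0.74).

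**Figure D4:**
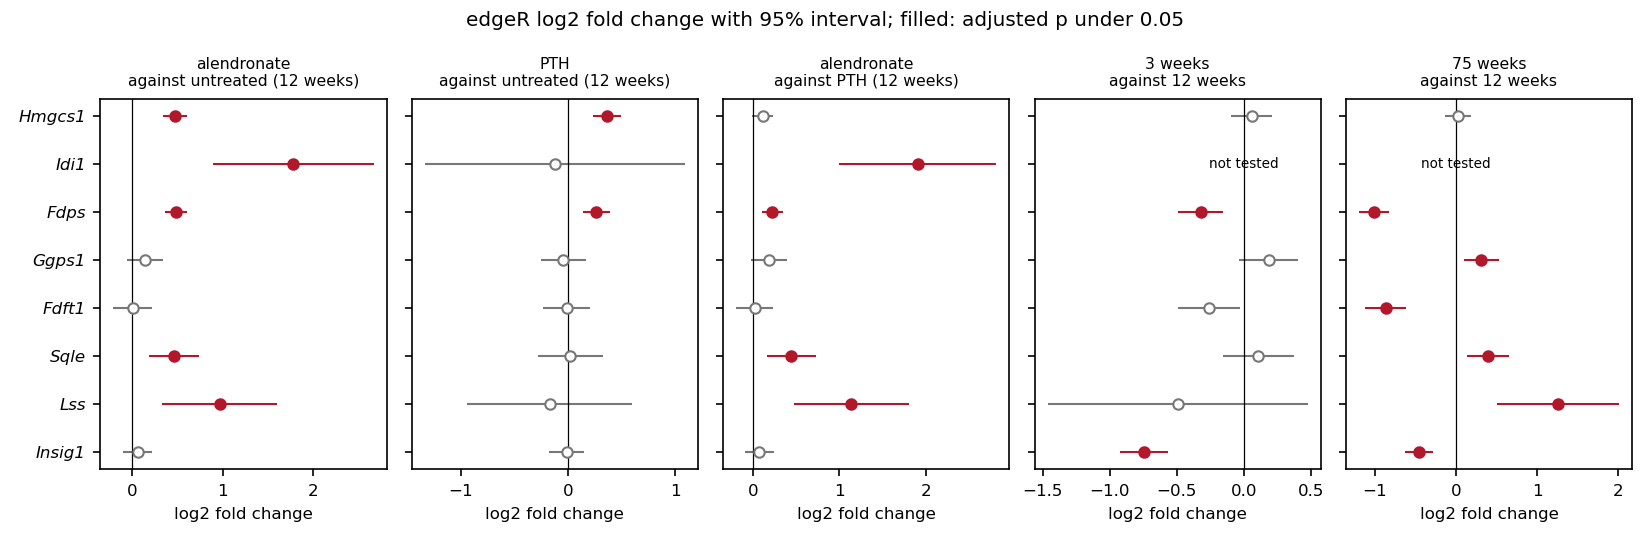
Log2 fold change of each member in the 5 comparisons of all ECs; bars are 95% intervals and filled points have an adjusted p under 0.05. Against untreated, 5 members were higher with alendronate and 2 with PTH, and at 75 weeks the filled points of 3 members are left of 0 and those of 3 are right of 0.

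With age the members did not move together. At 75 weeks 3 members were lower than at 12 weeks (Fdps, Fdft1 and Insig1) and 3 were higher (Lss, Sqle and Ggps1), against 74.9% of 15145 genes called in this contrast, 37.2% of them higher and 37.6% lower as shares of all genes tested. The 6 members called were out of 7 tested, a share near that of all genes. Fdps measured 13.7 and 12.5 CPM at 75 weeks, below both adult libraries, a log2 fold change of -1.01 ± 0.09 (adjusted p = 3.70e-09). Fdft1 measured 7.05 and 7.18 CPM against 12.7 and 14.8 CPM, a log2 fold change of -0.87 ± 0.12 (adjusted p = 2.57e-06). Insig1 measured 28 and 27.5 CPM, a log2 fold change of -0.45 ± 0.08 (adjusted p = 7.35e-05). These 3 calls held under all 16 alternatives, none of which changes how reads were counted.

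Of the members that were higher at 75 weeks, Lss measured 2.62 and 1.44 CPM against 0.997 and 0.777 CPM at 12 weeks (1.26 ± 0.36, adjusted p = 0.00384). Its replicate 1 was the higher, and without it the value was 0.76 (adjusted p = 0.144). Sqle measured 10.2 and 9.36 CPM (0.39 ± 0.12, adjusted p = 0.00705). Its call was lost without aged replicate 1 (0.33), without adult replicate 2 (0.32) and with class shares held equal (0.26, adjusted p = 0.236). Ggps1 measured 21.7 and 20.1 CPM against 15.9 and 19.7 CPM (0.32 ± 0.10, adjusted p = 0.0103), and was 0.26 without aged replicate 1 and 0.15 without adult replicate 1, neither past the threshold. Hmgcs1 did not differ (0.03, interval from -0.13 to 0.19), and Idi1 was too low to be tested, with 6 and 16 UMIs at 75 weeks.

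The aged libraries also stood apart in other genes. Their tables held 276 symbols starting with U, with 1.52% and 1.53% of their UMIs, that the other tables do not hold. Age and a difference in how reads were counted therefore cannot be told apart at 75 weeks. Ribosomal protein genes summed to 65620 to 67670 CPM at 75 weeks and to 153100 to 155200 CPM at 12 weeks, and stress-response genes to 892.5 to 927.3 CPM against 2397 to 2437 CPM. Mitochondrial genes summed to 21640 to 22850 CPM at 75 weeks against 13350 to 13380 CPM. Mural markers summed to 163.9 to 170.3 CPM against 459.3 to 462.1 CPM, megakaryocyte markers to 17.1 to 19.7 CPM against 70.4 to 78.6 CPM, adipocyte markers to 100.1 to 106.6 CPM against 246.2 to 266.1 CPM, and erythroid markers to 277.1 to 290.0 CPM against 383.9 to 749.3 CPM. Mesenchymal markers were higher at 75 weeks, at 31.62 to 33.57 CPM against 21.06 to 21.15 CPM. The part of these in the differences of the members was not tested.

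At 3 weeks 2 of the 7 members tested were lower than at 12 weeks, Insig1 and Fdps, and none was higher, where 43.8% of genes were called and 22% were called lower. Insig1 measured 26.3 and 21.3 CPM at 3 weeks against 37.5 and 42.7 CPM at 12 weeks, a log2 fold change of -0.74 ± 0.09 (adjusted p = 6.87e-07) that held under all 16 alternatives. Fdps measured 21 and 23.3 CPM, a log2 fold change of -0.32 ± 0.08 (adjusted p = 0.00283), and lost its call with class shares held equal (-0.28, adjusted p = 0.117) and with DESeq2 (-0.31, adjusted p = 0.0882). Haematopoietic markers summed to 18.0 to 24.3 CPM and stress-response genes to 1452 to 1463 CPM at 3 weeks, both below 12 weeks. Adipocyte markers were also lower at 3 weeks, at 38.6 to 42.7 CPM against 246.2 to 266.1 CPM. Megakaryocyte markers were higher, at 177.6 to 183.6 CPM against 70.4 to 78.6 CPM, as were mural markers (556.6 to 564.9 CPM against 459.3 to 462.1 CPM), mesenchymal markers (31.59 to 33.12 CPM against 21.06 to 21.15 CPM), mitochondrial genes (14290 to 14690 CPM against 13350 to 13380 CPM) and ribosomal protein genes (190600 to 191000 CPM against 153100 to 155200 CPM). The part of these lists in the differences of the members was not tested. Without adult replicate 1 Fdft1 was called lower (-0.36), and without adult replicate 2 Ggps1 was called higher (0.35). Each of these fits leaves 1 library at 12 weeks and takes its spread from the other ages.

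The lower Fdps at 75 weeks was present in 4 classes. The log2 fold change was -1.19 ± 0.16 in bmEC-like cells, where 66.6% of genes were called, and -0.86 ± 0.15 in mpEC-like cells, where 66% were called. It was -1.11 ± 0.18 in aEC-like cells, where 61% of genes were called, and -1.08 ± 0.29 in rEC-like cells, where 52.6% were called. In rEC-like cells the call was lost without adult replicate 1 (-0.94), and was -1.19 (adjusted p = 0.00911) without the cluster led by Tagln. In pEC-like cells, with 1 aged library of enough cells, no member was called by edgeR, where 16.5% of genes were called. Fdft1 was lower in mpEC-like cells (-1.21 ± 0.21) and in rEC-like cells (-1.23 ± 0.52), the latter with no call when any of the 4 libraries was left out (-0.94 to -1.57). The mpEC-like values of Fdps and Fdft1 were -0.55 and -0.39, without a call, when cells were clustered without integration. That clustering placed 32 and 33 cells of the aged libraries among the mpEC-like cells, against 658 and 697 with integration, and 1390 and 1453 among the aEC-like cells, against 592 and 613.

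Other members changed with age inside particular classes, and only part of these calls held when single libraries were left out. Sqle was higher at 75 weeks in bmEC-like cells, at 16.55 and 14.2 CPM against 7.84 and 7.62 CPM on the scale of that fit (0.99 ± 0.18, adjusted p = 6.25e-06), which held without each library. On the scale of all class sums, used for the other class CPM, log2 differences at 75 weeks lay above the fitted ones by 0.251 in bmEC-like, 0.156 in mpEC-like and by at most 0.069 in the remaining classes. It was also higher in mpEC-like cells (0.73 ± 0.24), a call lost without aged replicate 2 (0.68) or adult replicate 2 (0.63). Lss was higher in bmEC-like cells (1.56 ± 0.44), a call lost without aged replicate 1 (1.17). Ggps1 was higher in mpEC-like (0.49 ± 0.17), aEC-like (0.52 ± 0.22) and rEC-like cells (1.06 ± 0.35), and each of these calls was lost without adult replicate 1 (0.17, 0.21 and 0.95). Without integration, where the aged libraries had 32 and 33 mpEC-like cells, the mpEC-like value turned to -0.35. In rEC-like cells without the cluster led by Tagln, Ggps1 and Fdft1 were too low to be tested. Calls of Ggps1 were also lost without aged replicate 1 (0.40 for mpEC-like, 0.79 for rEC-like cells), aged replicate 2 (0.44 in aEC-like cells) and adult replicate 2 (1.19 in rEC-like cells, above the 1.06 of the full fit).

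Insig1 at 75 weeks was lower in aEC-like cells by -0.66 ± 0.14 (adjusted p = 0.00011), which held without each library. It was also called lower in bmEC-like (-0.42 ± 0.13), mpEC-like (-0.29 ± 0.13) and rEC-like cells (-0.65 ± 0.21). Those 3 calls were lost without aged replicate 2 in bmEC-like cells (-0.32), without aged replicate 1 (-0.21) or adult replicate 2 (-0.14) in mpEC-like cells, and without aged replicate 1 (-0.57) or adult replicate 1 (-0.60) in rEC-like cells. On the scale of all class sums, log2 differences lay above the fitted ones by 0.251 in bmEC-like and 0.156 in mpEC-like cells. There Insig1 measured 34.65 and 30.09 CPM at 75 weeks against 35.36 and 37.47 CPM at 12 weeks in bmEC-like cells. In mpEC-like cells it measured 31.73 and 36.59 CPM against 33.04 and 42.62 CPM, values that overlapped. These 2 calls therefore depend on the scale. At 75 against 12 weeks the smallest adjusted p of the 40 tests of a class against the others was 0.0646.

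At 3 weeks Insig1 differed from 12 weeks in most classes but not in aEC-like cells. In bmEC-like cells it measured 22.4 and 14.9 CPM at 3 weeks and 35.4 and 37.5 CPM at 12 weeks, a log2 fold change of -0.97 ± 0.12 (adjusted p = 1.29e-09, where 37.8% of genes were called). It was -0.56 ± 0.13 in mpEC-like cells (28% of genes called) and -1.58 ± 0.44 in rEC-like cells (4.12% called). In aEC-like cells it measured 49.6 and 58.2 CPM at 3 weeks and 49.0 and 57.6 CPM at 12 weeks, values that overlapped, where 14.8% of genes were called, and in pEC-like cells 3.23% were called. The difference between aEC-like cells and the mean of the other 4 classes was 0.95 ± 0.23 on the log2 scale (adjusted p = 0.00913 over 14258 genes, of which 1.47% were called). Of the 40 tests of a member in a class against the others at 3 weeks, no other was past the threshold. The mpEC-like call was lost without adult replicate 2 (-0.38), and the rEC-like call without any of the 4 libraries (-1.30 to -1.97) and without the cluster led by Tagln (-1.56, adjusted p = 0.197). Fdps at 3 weeks was lower in bmEC-like cells (-0.57 ± 0.12, adjusted p = 0.000149), which held under all 11 alternatives.

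Beyond the 8 members, 63 genes of 9 related lists were followed, all chosen with earlier results of these data known. With alendronate 18 of the 61 tested were higher and 2 lower, with a median log2 fold change of 0.07 against -0.003 for all genes, of which 27.6% were called and 15.4% were called higher. Of 4 other enzymes between acetyl-CoA and isopentenyl diphosphate, the kinase genes Mvk and Pmvk were higher, by 0.30 ± 0.10 and 0.24 ± 0.06, and Mvd and Acat2 were not called. Of the steps after squalene 2 of 9 were higher, Cyp51 by 0.73 ± 0.19 and Msmo1 (listed under its older symbol Sc4mol) by 0.43 ± 0.06. Srebf2, which encodes the sterol-regulating SREBP, rose by 0.52 ± 0.07 as 1 of 6 control genes called.

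Among 3 sterol transport genes tested, Stard4, a sterol carrier, rose by 0.58 ± 0.06 and Npc1 and Npc2 were not called. Of 8 SREBP fatty acid targets 3 were higher, Scd1 by 1.12 ± 0.26, Scd2 by 0.77 ± 0.06 and Acaca by 0.47 ± 0.16. Of 6 genes of the LXR and sterol efflux list, Abca1 was higher (0.16 ± 0.05) and Abcg1 lower (-0.40 ± 0.05).

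Of 9 prenylation enzymes tested 1 was higher, the Rab escort protein gene Chm (0.29 ± 0.06), and of 10 prenylated GTPases 6 were higher, by at most 0.30 ± 0.04 (Rhob). In the dolichol and ubiquinone branches Nus1 was higher (0.46 ± 0.06) and Dolk lower (-0.23 ± 0.06), out of 6. Inside classes Srebf2 was called higher with alendronate in bmEC-like cells (0.67 ± 0.12).

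**Figure D5:**
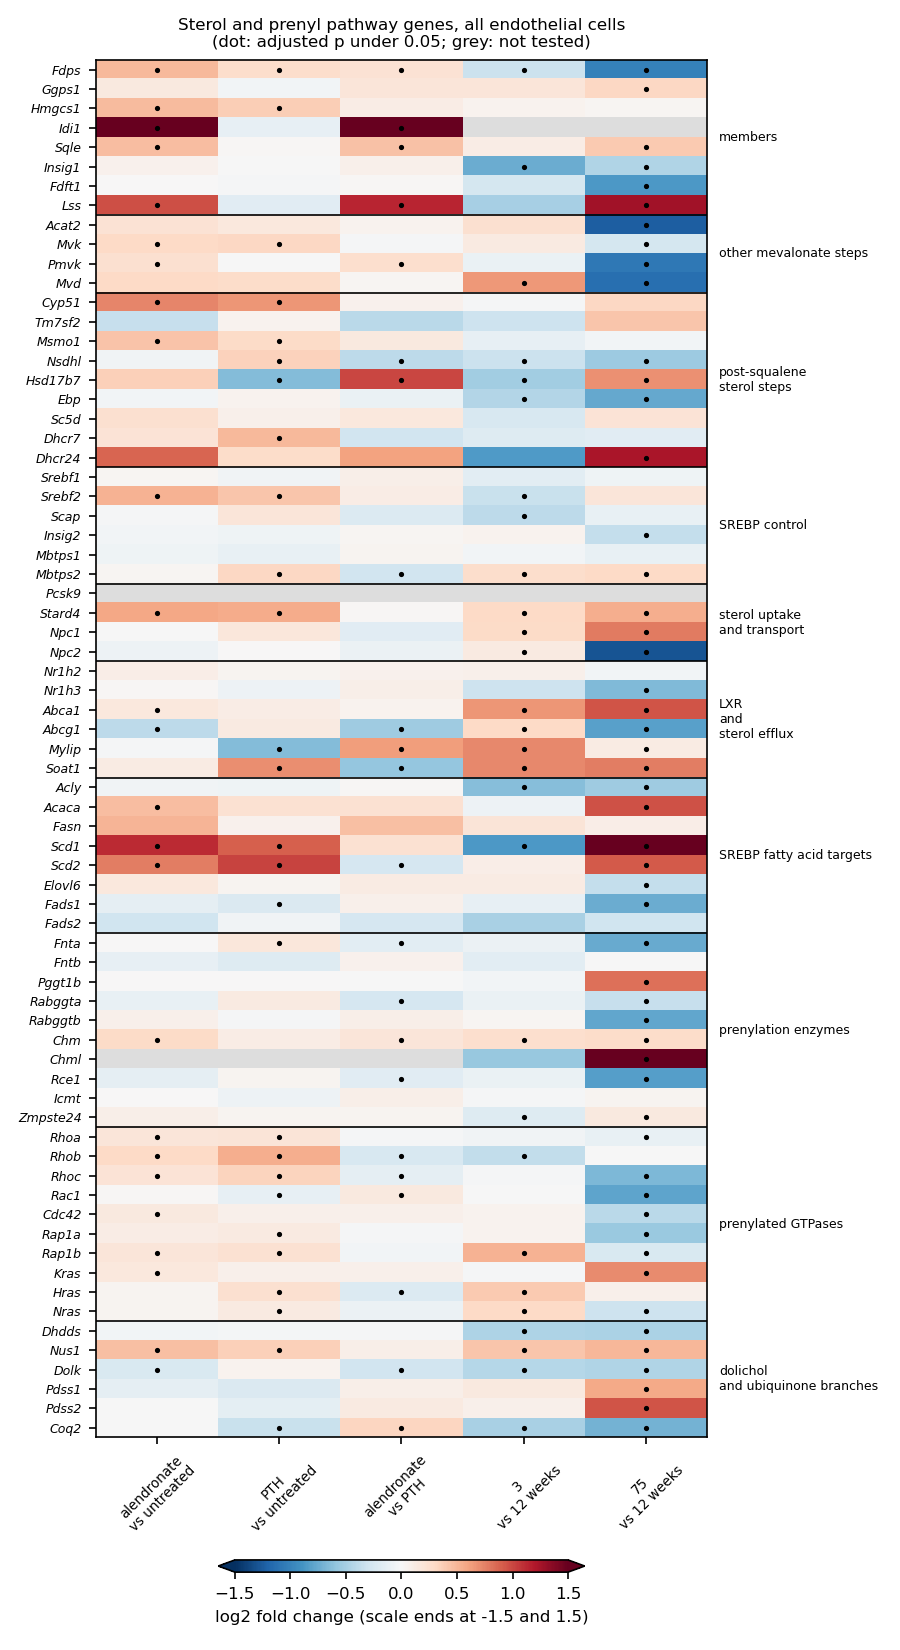
Log2 fold change of the 8 members and 63 genes of 9 related lists in the 5 comparisons of all ECs; dots mark an adjusted p under 0.05, grey cells were not tested, and the colour scale ends at -1.5 and 1.5. Cyp51, Stard4, Scd1 and Scd2 are red in both drug comparisons against untreated, and the column of 75 weeks holds both red and blue cells in most lists.

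With PTH, against the same untreated libraries, 20 of these 61 genes were higher and 5 lower, with a median of 0.08, where 31.6% of all genes were called and 16.8% were called higher. Of the steps after squalene 4 of 9 were higher, among them Cyp51 (0.66 ± 0.19) and Msmo1 (0.29 ± 0.07), and 1 was lower, and Mvk was higher (0.31 ± 0.10) as 1 of 4 upper enzymes. Of 6 control genes 2 were higher, Srebf2 by 0.41 ± 0.08 and Mbtps2 by 0.31 ± 0.10, and of 3 transport genes Stard4 was higher (0.56 ± 0.06). Of 8 fatty acid targets 2 were higher, Scd2 by 1.02 ± 0.06 and Scd1 by 0.89 ± 0.27, and 1 was lower. Of 10 prenylated GTPases 7 were higher, by at most 0.55 ± 0.04 (Rhob), and 1 was lower, and of 9 prenylation enzymes 1 was higher. The LXR and efflux list and the dolichol and ubiquinone branches each had 1 gene higher and 1 lower out of 6. Between the drugs 6 of 61 were higher with alendronate and 12 were lower, where 31.8% of all genes were called, and Srebf2 was not called.

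At 75 weeks 19 of 62 tested were higher and 27 lower than at 12 weeks, again in the presence of 74.9% of all genes called. The same 4 other enzymes of the upper pathway were lower, with log2 fold changes of -1.24 ± 0.14 for Acat2, -1.13 ± 0.15 for Mvd, -1.07 ± 0.07 for Pmvk and -0.27 ± 0.11 for Mvk, and Srebf2 was not called. At 3 weeks 14 of 62 were higher and 12 lower, where 43.8% of all genes were called, with Srebf2 at -0.33 ± 0.09.

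Among vessel classes, the mean level over libraries was highest in aEC-like cells for Fdps, Hmgcs1, Insig1 and Sqle. For Ggps1 and Lss it was highest in bmEC-like cells. For Fdft1 and Idi1 it was highest in pEC-like cells, which had 9 libraries and where Idi1 had a median of 0 CPM. How many of all genes share these maxima was not counted. Classes were defined from these same cells, so this is a description without a test. Fdps averaged 43.0 ± 15.1 CPM (SD, n = 10) in aEC-like, 27.6 ± 7.70 in mpEC-like, 26.7 ± 9.70 in rEC-like and 20.8 ± 6.22 CPM in bmEC-like cells, and aEC-like was the highest of these 4 classes in 10 of 10 libraries. The mpEC-like and rEC-like means differed by less than these SDs. The SDs also hold the differences between ages and drugs, and the pairing of classes within a library was not used. The pEC-like level was 38.3 ± 10.5 CPM (n = 9).

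The other members kept this order less strictly. Insig1 averaged 47.9 ± 9.10 CPM in aEC-like cells and between 32.9 and 38.9 CPM in the other 4 classes, and aEC-like was the highest of 4 classes in 7 of 10 libraries. Hmgcs1 averaged 36.2 ± 5.41 CPM in aEC-like and 25.5 ± 4.596 CPM in bmEC-like cells, and aEC-like was the highest of 4 classes in 6 of 10 libraries. Ggps1 ran the other way, with 22.3 ± 3.04 CPM in bmEC-like cells and 15.99 to 18.7 CPM elsewhere, and bmEC-like was the highest of 4 classes in 7 of 10 libraries. Fdft1 averaged 26.9 ± 9.82 CPM in pEC-like cells and 9.95 to 14.3 CPM in the other classes. Idi1 and Lss had library values of 0 in several classes.

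Over the 49 sums of class and library, the genes outside the lists whose log2(CPM + 10) followed the mean of the 8 members most closely were Hspd1 (r = 0.66), Slc33a1 (0.65), Art3 (0.64), Iars (0.62) and Mphosph8 (0.61), out of 6637 genes. Slc33a1 encodes an acetyl-CoA transporter and Hspd1 a mitochondrial chaperonin. With class means removed they were Dtd1 (0.68), Ly6a (0.65), Slc33a1 (0.64), Ppa1 (0.64) and Bhlhe40 (0.63). Sums of a library share its depth and preparation, so these values are a description with no p.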

How the data were processed

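Single ECs of femur and tibia were measured by droplet RNA-seq in 10 libraries, 2 per group. For every library the authors deposited the UMI count of each gene in each cell; per the labels and the submitters' processing notes, reads were processed with UMI-tools 1.1.2, STAR 2.7.10a and featureCounts 2.0.3 on mm10. UMIs are 3′ tag counts and were not divided by length.

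Barcodes with 500 to 6000 genes and under 25% mitochondrial UMIs were kept. The remaining values were computed here. Cells were integrated by library and clustered with Seurat 5.3.0 (2000 variable features, 30 components, resolution 0.5), leaving out the pathway genes, and clusters were named from at least 3 detected markers. Doublets were kept in the main result, and removing the highest doublet scores was an alternative. UMI counts were summed per library over ECs or per class (at least 20 cells, 49 of 50 sums) and tested with edgeR 4.0.16 (quasi-likelihood test, TMM scaling, Benjamini-Hochberg adjustment over all genes tested, threshold 0.05) in R 4.3.3, after a test on simulated data. The drug contrasts were fitted on the untreated, PTH and alendronate libraries and the ages on the juvenile, adult and aged libraries. CPM are TMM-scaled. Named were all members and, of each related list, up to 4 called genes of largest change; 2 list genes are not reported here and were left out of the list counts. Alternatives included DESeq2 1.42.0, other scaling and filters, thinning to 1000 UMIs, equal class shares, other clusterings and leaving out each library. The members and lists were chosen with earlier results of these data known. In the aged tables, 276 symbols starting with U that the other tables do not hold were left out. Libraries held 10653583 to 28419323 UMIs, and counts of a few UMIs limit Idi1 and Lss.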

Additional observations from a re-analysis of the deposited data

Results flagged for a closer look

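The change of Insig1 between 3 and 12 weeks differed between vessel classes. In aEC-like cells its log2 fold change lay above the mean of the other 4 classes by 0.95 ± 0.23 (SE; interaction term in edgeR, adjusted p = 0.00913), with 2 libraries per age, and 1.47% of genes passed the same test. Among the 40 such tests of the members in this contrast it was the only one past the threshold. The mean of the other classes includes rEC-like cells, where Insig1 had 5 and 3 UMIs at 3 weeks. The smallest adjusted p of a member in the other contrasts was 0.0646, at 75 against 12 weeks.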

How the results depend on the processing

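In all ECs, single members kept their side of the threshold in 425 values under other settings, and 26 lost and 2 gained a call. DESeq2 gave no adjusted p for Idi1 in the drug comparisons. When a library was left out, 128 values kept their side, 21 lost and 3 gained a call. The direction was also kept in all ECs where either fit gave a call. Values without a call in both fits could change sign, as Insig1 with alendronate did with class shares held equal (-0.08). Within classes 696 kept their side of the threshold, 42 lost and 15 gained a call under other settings, and 433, 49 and 4 without a library. Of the members called (5 for alendronate against untreated, 2 for PTH, 4 between the drugs, 2 at 3 weeks and 6 at 75 weeks), DESeq2 called 2, 1, 0 and 1 in the first 4, with 4 of 8 members at an unadjusted p under 0.05 between the drugs. With cells thinned to 1000 UMIs, 2 were called for alendronate (edgeR), 1 for PTH, which was Insig1 and lower (-0.34, adjusted p = 0.0416), and 0 between the drugs, with 0 of 6 tested at an unadjusted p under 0.05. With all cells that passed the filter 1 was called for PTH, and with class shares held equal 3, 1, 3, 1 and 5 for alendronate, PTH, between the drugs, 3 and 75 weeks. Leaving out a library gave 2 to 4 for alendronate, 2 for PTH, 0 to 3 between the drugs, with 3 of 8 at an unadjusted p under 0.05 at 0 called, 2 to 3 at 3 weeks and 4 to 6 at 75 weeks. Ggps1 in mpEC-like cells at 75 weeks turned from 0.49 to -0.35 without integration, where the aged libraries had 32 and 33 mpEC-like cells. The cause was not tested, other than that thinning leaves fewer counts and leaving out a library fewer samples.

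Over all genes 4002, 4574, 4606 and 6633 were called for alendronate, PTH, between the drugs and at 3 weeks. DESeq2 called 2014, 2622, 2499 and 4142, thinned cells gave 1920, 2023, 1903 and 4045, and equal class shares 2090, 2046, 2163 and 3639. For alendronate 2476 were called without alendronate replicate 1, 2649 without alendronate replicate 2 and 2549 without adult replicate 2, and 2961 for PTH without PTH replicate 2.

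The replicate numbers pair 2 libraries per group only and name no shared animal or batch. Deviations of same-numbered libraries correlated at 0.599 between adult and alendronate and between -0.103 and 0.0276 in the other pairs. The replicate block left the members called at 5, 2, 4, 2 and 6 and the genes called at 3962, 4451, 4480, 6458 and 11230, and crossing the numbers of PTH and adult left 2 members and 4612 genes.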

Other observations

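Cells outside the vessel classes were few and were not tested, and the values below were chosen after they were seen. In mesenchymal clusters Fdps had 13 and 14 UMIs in the alendronate libraries (74.5 and 79.5 CPM of plain totals), 11 and 13 UMIs with PTH (63.0 and 38.6 CPM) and 2 and 2 UMIs untreated (11.4 and 10.4 CPM). In the same clusters Insig1 had 23 and 18 UMIs with alendronate (131.8 and 102.3 CPM), 10 and 20 with PTH (57.3 and 59.4 CPM) and 4 and 4 untreated (22.88 and 20.75 CPM). In haematopoietic clusters Fdps measured 151.9 and 170.2 CPM with alendronate, 118.5 and 101.6 CPM with PTH and 125.2 and 110.3 CPM untreated.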
